A study of Mus musculus with 16 samples.

Results

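The MYC network was read here as 9 genes: the 3 MYC proteins (Myc, Mycn and Mycl), their shared partner Max, and 5 genes for proteins that also pair with MAX but repress (Mxd1, Mxd3, Mxd4, Mxi1 and Mnt). They were 9 of the 21887 protein-coding genes examined, were chosen by name (with earlier results of these data known), and each was followed over its gene record plus 10 kb on either side, called its locus. The study mapped 2 histone marks by ChIP-seq in muscle stem cells of C57BL/6 mice, in quiescent cells (QSC) and activated cells (ASC). Its 16 samples comprise 2 immunoprecipitated replicates and 2 inputs for each mark in each state. The labels name no genotype alteration or treatment, nor the way or duration of activation, nor the age of the mice. Each state and mark has 1 narrow and 1 broad peak list, with no values by replicate, so the differences between QSC and ASC below have no replicate error and no test.

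MYC and its relatives bind the E-box sequence CACGTG as heterodimers with MAX and recruit histone acetyltransferases, and MYC is a classic driver of growth and of entry into the cell cycle. MXD proteins, MXI1 and MNT compete for MAX at the same sites and recruit SIN3 and histone deacetylases, and several of them accumulate as cells leave the cycle and differentiate. H3K4me3 marks the starts of active or poised genes and H3K27me3 is deposited by Polycomb repressive complex 2; muscle stem cells move between a resting and a cycling state.

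All 9 genes had an H3K4me3 narrow peak within 1 kb of a transcription start in both states, and none met the H3K27me3 promoter call in either state. Among all protein-coding genes 54.4% had H3K4me3 at the promoter in QSC, 57.0% in ASC and 53.7% in both. An H3K27me3 promoter call, set at 500 bases or more under broad peaks in that window, was made for 0 of the 9 genes against 24.9% of all genes in QSC and 30.0% in ASC. Both marks at a promoter were therefore also found at 0 of 9 genes, where the share of all genes was 5.09% in QSC and 9.91% in ASC. Among genes with H3K4me3 at the promoter, as all 9 have, both marks were found at 1114 of 11916 in QSC and 2168 of 12476 in ASC. With 9 genes, a count of 0 cannot be told from such shares. The nearest to a call was Mycl in ASC, where a broad H3K27me3 peak covered 26 bases of the window. What differed between the genes was how far H3K4me3 spread and how near H3K27me3 came.

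The length of the H3K4me3 domain, meaning narrow peaks joined across gaps of up to 1 kb, ranged over the 9 genes from 1457 to 6352 bp in QSC and from 2721 to 7263 bp in ASC. The median was 3619 bp in QSC and 3206 in ASC, against 1809 and 2655 bp over all genes with the mark. The middle gene was Mxd4 in QSC and Max in ASC, so the lower ASC median does not mean that most of the 9 domains were shorter. In QSC 8 of the 9 domains were longer than that median of all marked genes, and in ASC all 9 were. The domain was longer in ASC at 8 of 9 genes, all but Mxd4, beside 90.8% of the 11755 genes marked in both states, so that share was near the background. The log2 ratio of ASC to QSC length had a median of 0.25 over the 9 genes and 0.54 over all marked genes. At 2 decimals 7 of the 9 lay below the latter and Mxd1 equalled it. The Mxd1 ratio exceeded that of 49.3% of marked genes. In such bulk data a domain that is shorter in every cell and one carried by fewer cells cannot be told apart. The lengths also depend on the list. In the broad H3K4me3 lists the median log2 ratio of the 9 genes was −0.17 and that of all genes 0.18, and 4 of the 9 genes rather than 8 were longer in ASC. These broad lists are unlike in size. The QSC list holds 184538 peaks (median fold 1.59, median −log10 q 0.0) and the ASC list 29297 (2.03 and 0.762). They hold 50.9% and 18.1% of the numbered peaks. Whether this has a part in the broad-list ratios was not tested.

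**Figure D1:**
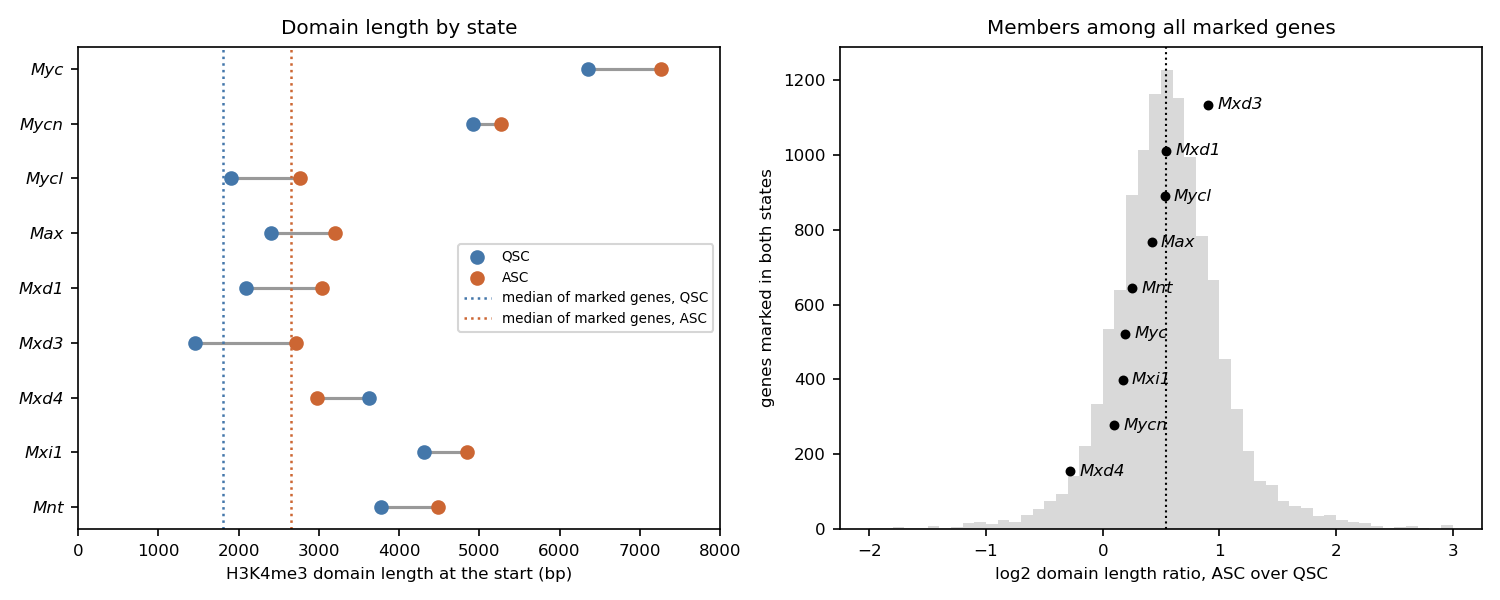
Left, H3K4me3 domain length in bp at each of the 9 genes in QSC (blue) and ASC (orange), with dotted lines for the median of all marked genes in each state; right, histogram of the log2 length ratio, ASC over QSC, of the 11755 genes marked in both states, with the 9 genes as points at arbitrary heights and a dotted line at the median. Myc has the longest domain of these narrow lists in both states (6352 and 7263 bp), and Mxd4 is the gene with the shorter domain in ASC (3619 and 2976 bp).

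Peak folds quoted here are the authors' own values, the enrichment of a peak over its background, and are compared only within a list, because every list has its own scale. The H3K4me3 narrow list holds 14354 peaks with a median fold of 10.4 in QSC and 15869 with a median of 16.3 in ASC. The H3K27me3 narrow lists hold 44019 and 58454 peaks with median folds of 4.36 and 3.88, and the broad ones 130668 and 95819 peaks with median folds of 1.90 and 1.72. Peak numbers in the names run higher than the peaks listed, so that the lists used here hold 63.2% and 62.0% of numbered H3K4me3 narrow peaks and 24.6% and 30.4% of numbered H3K27me3 narrow peaks. As a check on the labelled cell type, H3K4me3 stood at the promoter of 10 of 10 satellite cell markers in both states. Endothelial markers had it at 2 of 7 genes in QSC and 3 of 7 in ASC, and immune markers at 0 of 7 in both. Fibro-adipogenic markers had it at 1 of 7 in QSC and 4 of 7 in ASC (Pdgfra, Col1a1 and Cd248 in ASC alone, with folds of 5.24, 4.15 and 5.42), and whether those cells have a part in the values below was not tested.

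Among the MYC proteins, Myc itself, the broadly used growth regulator, lies on chromosome 15 at 61985341 to 61990361 (mm10) and had the longest H3K4me3 domain of the 9 genes in the narrow lists. A single narrow peak ran over the whole gene record in ASC, and over all but its higher-coordinate end in QSC, from 1596 bp before the lower end of the record to 4755 bp after it in QSC and from 1672 bp before to 5590 bp after it in ASC. The domain measured 6352 bp in QSC and 7263 in ASC, a log2 ratio of 0.19, and was longer than 99.1% of marked domains in QSC and 98.4% in ASC. Thus Myc stood in the longest few percent in both states. Its top fold was 23.8 in QSC (−log10 q 136) and 46.8 in ASC (−log10 q 340), above 98.4% and 99.7% of the peaks of the respective list. In the broad lists its domain was 8681 bp in QSC and 7719 in ASC, so the direction of the length difference turned (log2 ratio −0.17). Its rank was lost there too, since Max (10023 bp) and Mxi1 (9869 bp) were longer in QSC and Mycn (8352 bp) in ASC.

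Of the 9 genes Myc was also the farthest from an H3K27me3 narrow peak in both states. The nearest H3K27me3 narrow peak lay 1898401 bp from the record in QSC and 926969 bp away in ASC, while the median distance over all genes was 34408 and 19383 bp. Only 4.19% of genes in QSC and 5.28% in ASC lay farther from such a peak, within lists that hold part of the numbered peaks. These shares are of all genes, with or without H3K4me3 at the promoter. The Myc locus held 1 broad H3K27me3 peak of 313 bp in QSC, with a −log10 q of 0.319, and none in ASC. By broad peaks Myc was not the farthest in QSC, where the nearest lay 8443 bp from Myc and 62666 bp from Mnt.

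Mycn, a MYC protein best known from neural and embryonic tissue, lies on chromosome 12 at 12936093 to 12941836. Its H3K4me3 domain was 4923 bp in QSC and 5264 in ASC (log2 ratio 0.10), longer than 97.3% and 93.8% of marked domains. The domain thus covered most of the gene in both states, reaching 4082 bp downstream of the start in QSC and 4030 bp in ASC, while its upstream reach was 840 bp in QSC and 1233 in ASC. The top fold was 16.5 in QSC and 21.9 in ASC, at the 84.6 and 64.1 percentile of the peaks of each list. In the broad lists the domain was 7010 bp in QSC and 8352 in ASC (log2 ratio 0.25). Broad H3K27me3 peaks covered 4274 bp or 16.6% of the Mycn locus in QSC and 2100 bp or 8.16% in ASC. All but 1 of its 4 QSC peaks, and the single ASC peak, lay more than 10 kb downstream of the start, outside the gene record, and their −log10 q did not exceed 0.684.

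Mycl, a MYC protein of narrower tissue range, lies on chromosome 4 at 122995588 to 123002490 and was the gene of the set with the most H3K27me3 around it. Its H3K4me3 domain was of ordinary length, 1910 bp in QSC and 2762 in ASC (log2 ratio 0.53), longer than 54.7% and 53.3% of marked domains, and its top fold was 11.1 in QSC and 25.1 in ASC. The broad lists gave 4689 bp in QSC and 3875 in ASC, the opposite direction (log2 ratio −0.28). Broad H3K27me3 peaks covered 10674 bp or 39.7% of the locus in QSC and 10366 bp or 38.5% in ASC. The amount was therefore similar in the lists of both states, but the longest peak lay in a different place. In QSC the longest broad peak, 6097 bp with a −log10 q of 0.92, lay upstream from 10549 to 4453 bp before the start. In ASC the longest, 5057 bp with a −log10 q of 0.959, lay inside the gene from 975 to 6031 bp after the start. Within the gene record alone, broad peaks covered 2505 bp or 36.3% in QSC and 5057 bp or 73.3% in ASC, and for the other 8 genes they covered none of the record in either state.

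The narrow H3K27me3 lists, made from the same samples, also held peaks at different places of the Mycl locus by state. An upstream peak of 541 bp was listed in QSC, from 6880 to 6340 bp before the start (fold 3.27, −log10 q 2.67). In ASC a peak of 380 bp lay inside the gene, from 3435 to 3814 bp after the start (fold 3.88, −log10 q 5.41), and a second of 285 bp began 15223 bp after the start (fold 3.68, −log10 q 4.78). None of these folds was above the median of its list. Mycl was the only 1 of the 9 genes with an H3K27me3 narrow peak in its locus in either state, against 34.3% of all genes in QSC and 41.2% in ASC. Those shares were not matched for H3K4me3 at the promoter. The QSC count went to 0 when peaks were held to a −log10 q of at least 5 or the flank to 5 kb, and the ASC count to 0 when the ASC list was trimmed to the bases covered in QSC.

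**Figure D2:**
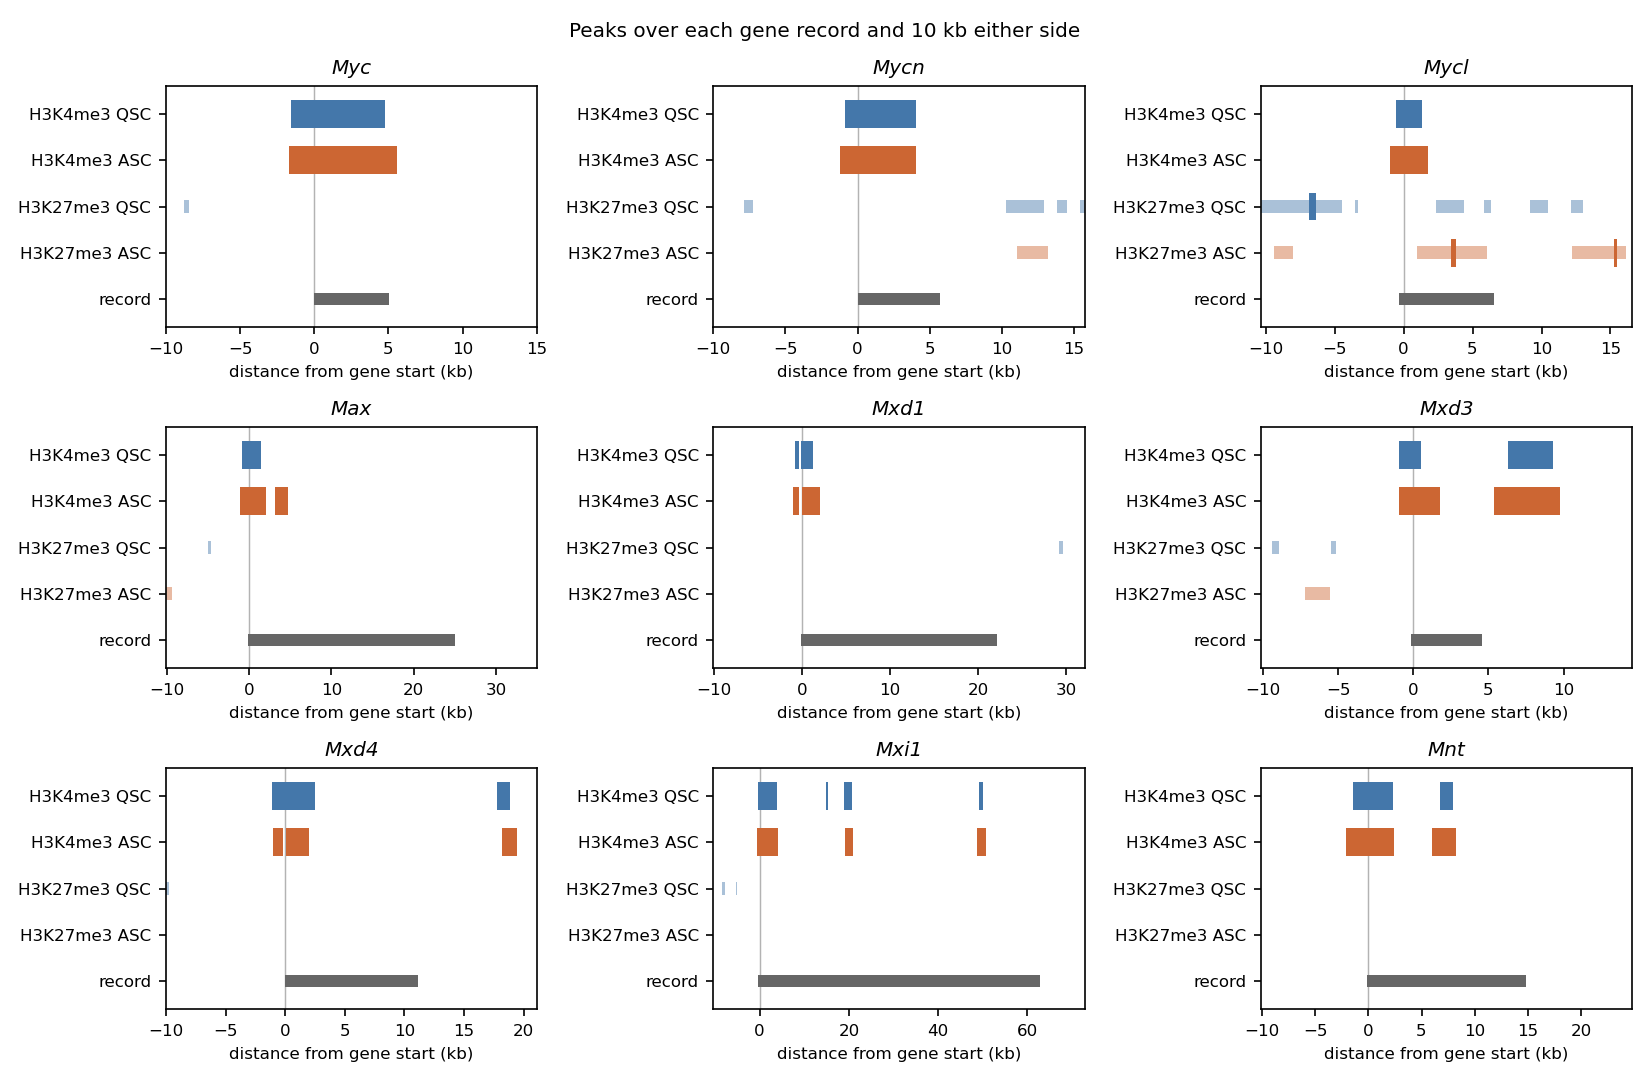
Peaks along the 9 loci in QSC and ASC, drawn by distance in kb from the transcription start (for Myc, from the lower-coordinate end of the record), with narrow H3K4me3 peaks, H3K27me3 peaks (pale for broad, dark for narrow) and the gene record (grey) in separate tracks, QSC in blue and ASC in orange, each cut at the edges of the locus. H3K4me3 sits over every start, and H3K27me3 fills a sizeable part of Mycl (39.7% and 38.5% of the locus) and of the downstream side of Mycn (16.6% and 8.16%).

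Max encodes the partner shared by the other proteins of this set and lies on chromosome 12 at 76937269 to 76962323. Its H3K4me3 domain was 2398 bp in QSC and 3206 in ASC (log2 ratio 0.42), longer than 73.8% and 66.0% of marked domains. The peak was strong for its length: a top fold of 20.3 in QSC and 36.5 in ASC stood above 94.9% and 95.3% of the peaks of each list. In the narrow lists a second H3K4me3 peak of 1627 bp lay from 3175 to 4801 bp inside the gene in ASC, with a fold of 4.70, and none was listed there in QSC. A broad H3K4me3 peak of QSC did span that place, reaching 8247 bp after the start. With gaps of up to 3 kb joined, that peak merged with the first and the log2 ratio was 1.31, whereas in the broad lists the domain was 10023 bp in QSC and 7292 in ASC (log2 ratio −0.46). Broad H3K27me3 covered 313 bp of the locus in QSC and 764 bp in ASC, all of it upstream of the gene.

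The promoter of Max is shown because the site its own protein binds, as a dimer, lies across its start. The sequences given here run from 250 bases before the start to 5 bases after it, 5′ to 3′ on the gene's strand, are credited to RefSeq (GRCm38.p6), and were found for 8 of the 9 genes; Myc had no entry. Searched for the 6 letters CACGTG, which read the same on both strands, the 8 genes gave a match in 3, namely Max, Mxd4 and Mnt. Of 21263 promoters of protein-coding genes, 300 bases each (250 before the start and 50 from it on), 7.84% held the motif, and of 12275 promoters of genes with H3K4me3 in both states 9.96%. These are shares of promoters, whereas the matches above are counted by gene, and Mxi1 has 3 promoters. The match began 3 bases before the start in Max, 219 bases before it in Mxd4 and 123 bases before it in Mnt, and it is in capitals here. Mxd4 and Mnt were chosen for display after their matches had been seen. A match of letters is not a measured binding site.
Max promoter, chr12:76962243-76962498, minus strand: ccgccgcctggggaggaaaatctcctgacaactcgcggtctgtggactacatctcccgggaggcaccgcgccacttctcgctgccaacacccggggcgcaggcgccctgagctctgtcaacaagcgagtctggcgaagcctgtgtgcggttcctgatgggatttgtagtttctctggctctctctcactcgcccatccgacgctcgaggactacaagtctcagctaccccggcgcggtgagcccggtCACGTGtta
Mxd4 promoter, chr5:34187705-34187960, minus strand: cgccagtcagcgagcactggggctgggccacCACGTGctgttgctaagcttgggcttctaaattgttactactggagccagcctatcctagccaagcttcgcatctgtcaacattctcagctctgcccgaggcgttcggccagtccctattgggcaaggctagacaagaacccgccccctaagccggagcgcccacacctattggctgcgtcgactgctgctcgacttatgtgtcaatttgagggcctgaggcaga
Mnt promoter, chr11:74830674-74830929, plus strand: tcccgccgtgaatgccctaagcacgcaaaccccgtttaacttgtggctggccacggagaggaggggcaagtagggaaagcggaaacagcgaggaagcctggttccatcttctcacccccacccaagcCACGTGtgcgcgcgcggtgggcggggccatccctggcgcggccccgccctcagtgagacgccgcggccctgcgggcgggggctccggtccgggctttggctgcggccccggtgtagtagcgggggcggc

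Of the repressors, Mxd1, the founding MXD gene and a marker of differentiating cells, lies on chromosome 6 at 86647044 to 86669234. Its H3K4me3 domain was 2089 bp in QSC and 3036 in ASC (log2 ratio 0.54, the median of all genes), with a top fold of 10.4 in QSC and 15.4 in ASC. Those folds stood near the middle of each list (whose medians are 10.4 and 16.3), so Mxd1 was an average H3K4me3 gene in length ratio and in fold. In both states its domain was a pair of peaks with a gap just upstream of the start, of 1359 and 553 bp in QSC and of 2063 and 697 bp in ASC. In the narrow lists the added length lay mostly downstream, where the edge stood 1242 bp from the start in QSC and 2011 bp in ASC. The broad lists gave a smaller ratio, 4195 bp in QSC and 4670 in ASC (log2 ratio 0.15).

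Mxd3, the MXD gene known for expression in dividing progenitors, lies on chromosome 13 at 55325170 to 55329900 and had the largest length ratio of the 9 genes. Its domain was 1457 bp in QSC, the shortest of the set, and 2721 bp in ASC, a log2 ratio of 0.90 that exceeded 80.7% of marked genes. In the narrow lists the difference lay on 1 side of the start. The downstream edge was 499 bp from the start in QSC and 1768 bp in ASC, whereas the upstream edge was 957 and 952 bp away. The top fold was low within each list, 7.26 in QSC and 12.8 in ASC, at the 29.3 and 40.6 percentile. In the broad lists the domain was 2944 bp in QSC and 5342 in ASC (log2 ratio 0.86), and there both sides differed, with an upstream edge at 1244 and 2620 bp and a downstream edge at 1699 and 2721 bp. With both ends of the record taken as starts the log2 ratio was 1.58, because the window then took in the ASC peak of its neighbours. That peak, at the ends of Rab24 and Prelid1, was 2996 bp in QSC and 4353 in ASC. Trimmed to equal covered bases, the ASC list no longer held an H3K4me3 peak at Mxd3 or Mxd1, which left 7 of 9 genes with the mark and 38.0% of all genes.

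The Mxd3 promoter is shown for that ratio, with the GC box GGGCGG (on either strand; a search added after the sequences were seen) in capitals. The 300 bases held 8 GC boxes, some of them overlapping, between 138 and 44 bases before the start, and 46.2% of all promoters held at least 1. Over the other genes Mxd1 had 6, Mnt 4, Mycn 2, Mycl and Mxd4 1 each, Mxi1 1 to 4 by start, and Max none. The GC content of the Mxd3 promoter was 71.0%, against a median of 56.3% over all promoters and 61.7% over those of genes with H3K4me3 in both states.
Mxd3 promoter, chr13:55329726-55329981, minus strand: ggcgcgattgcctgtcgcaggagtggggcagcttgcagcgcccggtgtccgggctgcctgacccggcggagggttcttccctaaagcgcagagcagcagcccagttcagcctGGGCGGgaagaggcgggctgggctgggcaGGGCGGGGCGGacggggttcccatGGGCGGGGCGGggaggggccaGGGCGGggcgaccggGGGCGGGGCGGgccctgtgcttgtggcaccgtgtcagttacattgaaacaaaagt

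Mxd4, an MXD repressor linked to differentiation, lies on chromosome 5 at 34176580 to 34187710. In the narrow lists it was the single gene of the 9 with a shorter domain in ASC. Its domain was 3619 bp in QSC and 2976 in ASC, a log2 ratio of −0.28, and only 3.45% of marked genes had a lower one. In QSC it was longer than 92.4% of marked domains and in ASC than 59.7%. In the narrow lists both edges stood nearer to the start in ASC, by 132 bp upstream and 511 bp downstream, and the single QSC peak of 3619 bp was listed in ASC as peaks of 1883 and 849 bp. The top fold was nevertheless 8.86 in QSC and 19.7 in ASC, at the 40.5 and 58.5 percentile of the peaks of each list. The direction held under all 9 alternatives run, but most of them returned the same −0.28 and so added little. The log2 ratio was −0.94 with no joining of peaks and at equal covered bases. In the broad lists the domain was 6714 bp in QSC and 4440 in ASC (log2 ratio −0.6). Mxd4 was not alone there, since Myc, Mycl, Max and Mxi1 were also shorter in ASC, and Mxi1 had a lower ratio (−0.77). In those lists, however, the upstream edge of Mxd4 was farther from the start in ASC (2031 bp) than in QSC (1361 bp). The 3 genes most like Mxd4 by domain length and H3K27me3 share in both states were Ssh2, Nt5dc3 and Tbc1d10b, of which Ssh2 had domains of 3722 and 2978 bp.

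Mxi1, also called Mxd2, lies on chromosome 19 at 53310128 to 53373293 and is the longest of the 9 genes, with 3 annotated starts. At the first start the domain was 4309 bp in QSC and 4851 in ASC (log2 ratio 0.17), longer than 95.6% and 91.8% of marked domains, with a top fold of 17.9 in QSC and 32.5 in ASC. The other starts share a domain about 19 kb downstream that was 1618 bp in QSC and 1798 in ASC (log2 ratio 0.15), so the starts had a similar ratio. A further peak with no annotated start began 49059 bp after the first start in QSC and measured 1050 bp, and its ASC counterpart measured 1959 bp. A 514 bp peak with a fold of 3.15 was in the narrow list of QSC alone, while a broad H3K4me3 peak of 1820 bp covered its place in ASC (−log10 q 0.141). In the broad lists the first domain was 9869 bp in QSC and 5770 in ASC, which turned the direction (log2 ratio −0.77). The record of Gm30541 overlaps the first start, and peaks without strand cannot be assigned to either gene.

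Mnt, the MAX-binding repressor expressed in both resting and dividing cells, lies on chromosome 11 at 74830806 to 74845725. Its domain was 3778 bp in QSC and 4481 in ASC (log2 ratio 0.25), longer than 93.5% and 88.7% of marked domains, and the top fold of 21.6 in QSC and 37.2 in ASC stood above 96.7% and 96.3% of the peaks of each list. In the narrow lists the difference was on the upstream side, where the edge was 1450 bp from the start in QSC and 2106 bp in ASC, while the downstream edge stood 2327 and 2374 bp away. An intragenic peak had its summit 7250 bp after the start in QSC and 7251 bp in ASC, and measured 1223 and 2247 bp. Mnt was the only gene with no H3K27me3 peak, broad or narrow, in its locus in either state. The genes most like it by the same 4 values were Id1 (3793 and 4543 bp), a target of BMP signalling, with Antxr2 and Psme2.

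Across the 8 genes with a start in the promoter table, the downstream edge of the narrow domain was farther from the start in ASC at 6 and the upstream edge at 6. Over 7568 genes with 1 start and H3K4me3 in both states, the shares were 90.4% and 80.2%, with median shifts of 567.0 bp downstream and 219.5 bp upstream. Mycn and Mxd4 had the nearer downstream edge, and Mxd3 and Mxd4 the nearer upstream edge. More than 1 narrow H3K4me3 peak in the locus in both states was found for 5 of 9 genes, the repressors Mxd1, Mxd3, Mxd4, Mxi1 and Mnt. The share was 23.1% of all genes, with or without H3K4me3 at the promoter. These extra peaks were of different kinds: a divided domain at Mxd1, peaks at the ends of neighbours at Mxd3 and Mxd4 (Poln and Haus3 at the latter), and peaks inside the gene at Mxi1 and Mnt. The comparison was not matched for H3K4me3 at the promoter or for record length, so it does not set the repressors apart.

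**Figure D3:**
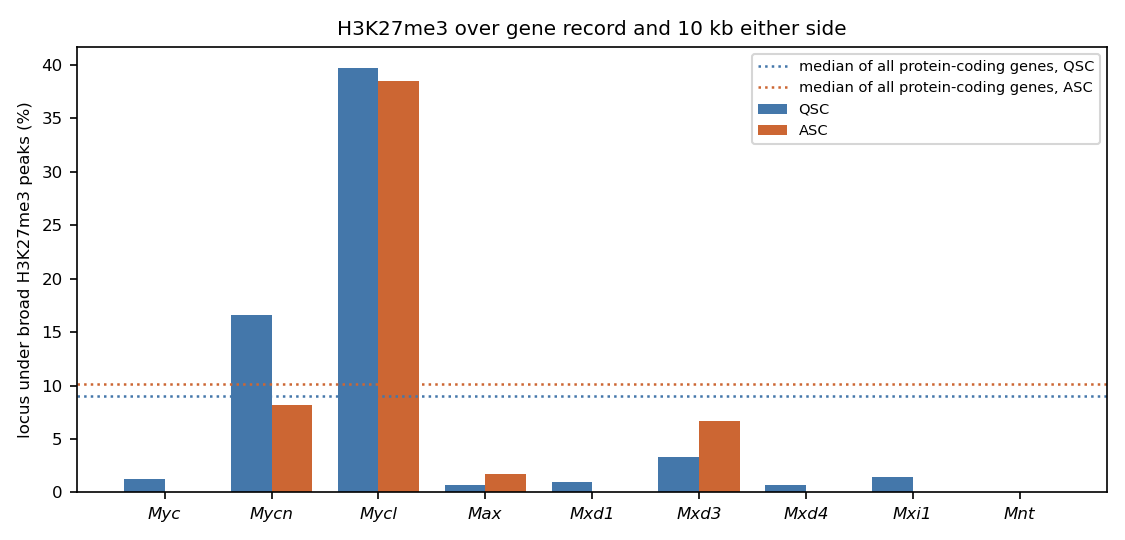
Percent of each locus, the gene record plus 10 kb on either side, under broad H3K27me3 peaks in QSC and ASC, drawn as bars, with the median of all protein-coding genes as dotted lines. Mycl (39.7% and 38.5%) lies above the medians of 9.01% and 10.2% in both states, Mycn (16.6% and 8.16%) above in QSC alone, and the other 7 genes below.

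Outside Mycl and Mycn, broad H3K27me3 peaks covered little of each locus. At least 1 broad H3K27me3 peak was listed in the locus of 8 of 9 genes in QSC (all but Mnt), beside 72.1% of all genes. In ASC it was 4 of 9 (Mycn, Mycl, Max and Mxd3), beside 70.4% of all genes. Myc, Mxd1, Mxd4 and Mxi1 had such a peak in QSC alone, but it covered little of each locus, 1.25%, 0.955%, 0.739% and 1.47%. With the QSC list trimmed to the number of ASC peaks, those at Mxd4 and Mxi1 were no longer listed. At Mxd3 the share was 3.28% in QSC and 6.67% in ASC, and at Max 0.695% and 1.70%. The median share was 1.25% in QSC and 0% in ASC over the 9 genes, and 9.01% and 10.2% over all genes. All genes here include those without H3K4me3 at the promoter, a mark that all members have. The comparison was not matched for that mark, so it does not make low H3K27me3 a trait of the network. None of the 18 broad H3K27me3 peaks listed in these loci in QSC, or of the 6 in ASC, reached a q of 0.05 in the authors' values, the highest −log10 q being 1.29 in QSC and 0.959 in ASC. Over all peaks of the broad H3K27me3 lists the median −log10 q was 0.42 in QSC and 0.378 in ASC. Most listed broad peaks of this mark therefore also missed a q of 0.05.

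The wider network was read from lists of genes by role. The MAX and MLX relatives Mga, Mlx, Mlxip and Mlxipl had H3K4me3 at 4 of 4 promoters in both states, beside 53.7% of all genes. Of their 4 domains 3 were longer in ASC (90.8% over all marked genes), with a median log2 ratio of 0.17. Mlxipl, which encodes the glucose-responsive factor ChREBP, was the 1 of the 4 with an H3K27me3 promoter call, in both states. Such a call was made for 24.9% of all genes in QSC and 30.0% in ASC. The Mlxipl domain was 2265 bp in QSC and 1909 in ASC (log2 ratio −0.25). Mlxip measured 2529 bp in QSC and 3932 in ASC, and Mga, a repressor that pairs with MAX, 1519 and 1828 bp. The transcription factors of this network thus had median ratios of 0.17 to 0.25 by group (0.19 for the MYC proteins and 0.25 for the repressors, with Max at 0.42), below the 0.54 of all genes; no test was possible.

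In the narrow lists, genes for proteins that work with MYC or control its stability had larger median ratios than the 9 genes. The median of all marked genes was 0.54, near that of the cofactor genes. Ratios of these gene lists were not computed from the broad peak lists. All 20 cofactor and chromatin partner genes had H3K4me3 in both states and none an H3K27me3 call. Over all genes 53.7% had H3K4me3 in both states, and an H3K27me3 call was made for 24.9% in QSC and 30.0% in ASC. Of genes with H3K4me3, both marks were found at 1114 of 11916 in QSC and 2168 of 12476 in ASC. Domains were longer in ASC at 19 of the 20 cofactor genes, a share near the 90.8% of all marked genes, and their median log2 ratio was 0.61. Ruvbl2, a subunit of the TIP60 and INO80 complexes, had 1214 bp in QSC and 4074 in ASC (1.75). Actl6a, an actin-like subunit of chromatin remodellers, had 1205 and 2621 bp (1.12), and Mycbp, a MYC-binding protein, 1623 and 3300 bp (1.02). Of the 14 genes for MYC protein turnover, 14 had H3K4me3 in both states, none an H3K27me3 call, and 14 a longer domain in ASC (90.8% over all marked genes), with a median of 0.77. The ubiquitin ligase Huwe1 had 1779 bp in QSC and 5313 in ASC (1.58), and the kinase Aurka 1771 and 4677 bp (1.40).

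Textbook MYC target genes, 29 of 30 found in the annotation, had H3K4me3 at 27 promoters in QSC and 28 in ASC. The shares of all genes were 54.4% and 57.0%. A longer domain in ASC was found at 26 of the 27 marked in both, again near the 90.8% of all marked genes. Their median log2 ratio was 0.59, near the 0.54 of all marked genes. Ccnd2, a G1 cyclin, had an H3K27me3 call in both states and no H3K4me3 within 1 kb of its record ends in either. Ccnd2 did not lack H3K4me3 altogether, because its locus held narrow peaks of that mark outside those windows (QSC 1, ASC 2). The added gene was Tert, the catalytic subunit of telomerase, with a peak of 1101 bp and a fold of 7.41 in ASC and none in QSC; its H3K27me3 call was made in QSC alone, with a −log10 q of 0.387. Npm1, a nucleolar chaperone, had 684 bases of its promoter window under broad H3K27me3 in QSC, which met the call, and 350 in ASC, which did not, although the −log10 q was 4.09 in QSC and 10.4 in ASC. Its H3K4me3 domain was 2009 bp in QSC and 3832 in ASC (0.93). Shmt2, a mitochondrial serine enzyme, and Ubtf, an RNA polymerase I factor, had such a call in ASC alone. The largest ratios belonged to Rcc1, a mitotic exchange factor (1592 and 4061 bp, 1.35), and Mcm5, part of the replicative helicase (1591 and 3466 bp, 1.12).

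**Figure D4:**
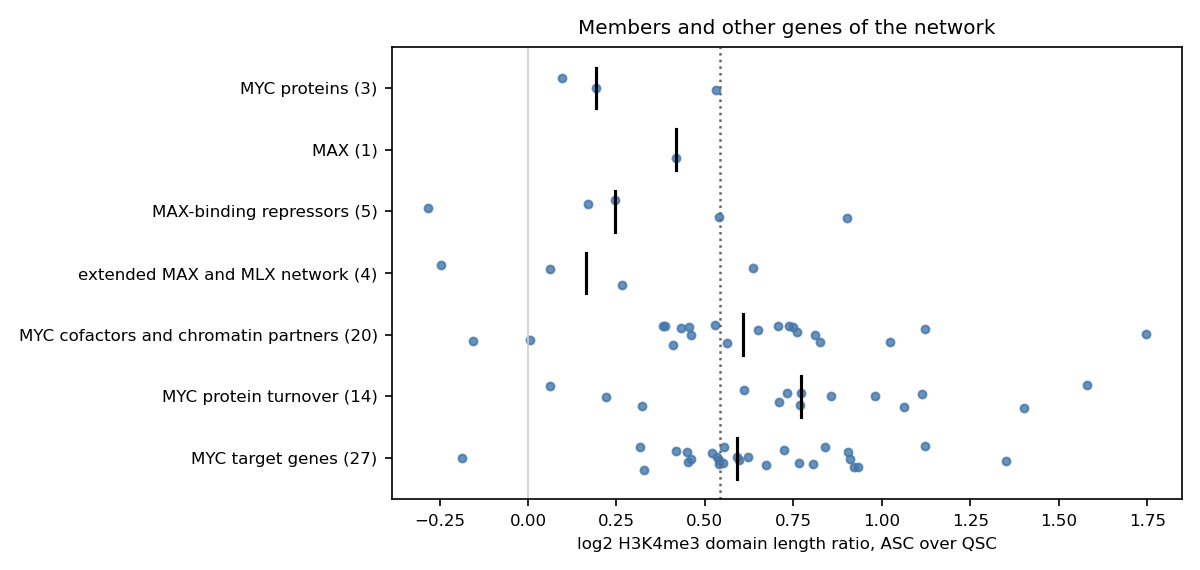
Log2 ratio of H3K4me3 domain length, ASC over QSC, for each gene of the network lists, 1 point per gene, with a bar at each list's median and a dotted line at the median of all genes (0.54). The medians run from 0.17 for the MAX and MLX relatives to 0.77 for the turnover genes, and no error is drawn because each state has 1 list.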

How the data were processed

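ChIP-seq libraries for H3K4me3 and H3K27me3 were described as made by tagmentation of antibody-bound chromatin and paired sequencing, per the labels' protocols. The build was mm10, and MACS2 2.1.1, bedtools 2.26.0, SAMtools 1.3, Picard 2.9.2, Bowtie2 2.3.2, Trimmomatic 0.36 and bcl2fastq 2.19 were used, per the submitters' processing notes. Their settings and the way replicates were combined are not stated in the labels. The authors deposited 8 peak lists, 1 narrow and 1 broad for each mark and state. Each peak carries the authors' fold enrichment (a ratio), −log10 p-value and −log10 q-value, and in narrow lists a summit offset in bases, an other number deposited by the authors. Read counts and depth are not in the values used, so depth is unknown and no interval is given.

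Peaks were laid over gene records of GRCm38.p6, whose chromosomes have the coordinates of mm10, with Python 3.11.15, pandas 2.3.3 and numpy 2.4.6. Starts came from the RefSeq promoter table for 17492 of 21887 protein-coding genes. For the other 4395, Myc among them, both ends of the record were used. The promoter was 1 kb on either side of a start. An H3K4me3 call needed 1 base of a narrow peak, an H3K27me3 call 500 bases under broad peaks. Narrow peaks no more than 1 kb apart were joined; the domain is the longest run that touches the promoter. Code was tested on simulated data. Genes named were all 9 members, genes overlapping their loci, and in each list those whose call differed between states and the 3 with the largest absolute log2 ratio. A gene that this rule also names is not reported here. For likeness, the 3 genes nearest over 4 values were used (log2 of domain length plus 100 bp and H3K27me3 share, in each state). Of 108 list symbols 107 matched, all but Phb1. The members and lists were chosen with earlier results of these data known. Alternatives were other thresholds, windows, gaps, lists, and equal numbers or bases of peaks.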

Additional observations from a re-analysis of the deposited data

How the results depend on the processing

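No paired analysis was possible because the lists pool the replicates and carry no value by sample; for the same reason no replicate could be left out. The counts of genes with H3K4me3 stayed within 1.5 times under every alternative run. For an H3K27me3 narrow peak in the locus the QSC count of 1 was 0 at a −log10 q of at least 5, with 5 kb flanks and with no flank, and the ASC count was 0 at equal covered bases; counting broad peaks gave 8 in QSC and 4 in ASC. An H3K27me3 promoter call appeared at 1 gene in ASC with a 2.5 kb window, as did both marks, and at 1 gene in QSC with both ends of every record, an alternative chosen after seeing the data. The median domain log2 ratio was 0.19 at equal covered bases and −0.17 in the broad lists, where 4 genes were longer in ASC and 62.6% of all genes; it reversed there for Myc (−0.17), Mycl (−0.28), Max (−0.46) and Mxi1 (−0.77). The median H3K27me3 share in QSC was 0 at a −log10 q of at least 5, at a fold of at least 3, in narrow lists, with no flank, and at a q of 0.05 or less (chosen after seeing the data), 0.955 at equal peak numbers and 0.0747 with 5 kb flanks. The difference in H3K27me3 share, ASC minus QSC in percentage points, reversed for Mycl, from −1.14 to 5.42 at equal peak numbers, 0.46 in narrow lists, 1.22 with 5 kb flanks and 36.97 with no flank, and with 5 kb flanks for Max (−0.89) and Mxd3 (−0.07). The cause was not tested. Depth is unknown, so an absent peak was not detected in these lists rather than shown to be absent.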
